A study of Mus musculus with 2 samples.

Results

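The genes described here encode the proteins of the cytoplasmic ribosome. They were taken as the rows whose mouse symbol starts with Rpl or Rps and a number (with an optional a, x, y or l), together with Rplp0, Rplp1, Rplp2 and Rpsa. The rule found 80 of 16943 nuclear genes, 31 named for the small and 49 for the large subunit, and 79 were listed for each plate. Rpl3l was listed for the DMSO plate alone and Rpl39l for the ISX-9 plate alone. Rps3a1 and Fau also yield ribosomal proteins, but their symbols fall outside the rule. Cells came from organoids of mouse jejunum and ileum that were homozygous for a Neurog3-RFP reporter, and only reporter-positive (Ngn3-RFP-positive) cells were sorted. One group of organoids received the solvent DMSO for 48 h and the other ISX-9 (isoxazole 9, a small molecule known to induce neuronal differentiation) for 48 h. Each treatment has 1 plate of 384 wells, so the treatment and the plate cannot be told apart. Wells that share a plate do not replicate the treatment, and no test was made.

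A ribosome joins a small subunit, which reads the mRNA, to a large subunit, which forms the peptide bond. Cells make its proteins in matched amounts, and their mRNAs belong to the most abundant in growing cells. Most of these mRNAs start with a run of pyrimidines, the 5′ TOP motif, through which the kinase mTOR and the RNA-binding protein Larp1 tune their translation together. In the intestinal crypt, Neurog3 marks endocrine progenitors. Tph1 encodes the enzyme for serotonin synthesis in enterochromaffin cells, Muc2 the mucin of goblet cells, and Mki67 a protein of cycling cells.

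The start of these genes is shown because the TOP run sits there. In RefSeq promoters (GRCm38.p6), 72 promoters of 60 of the 80 genes were matched by symbol, and the 50 bases around each start were searched for CTTTCC. Read along the gene, it was present in 11 of 72 promoters (15.3%), against 2.46% of all 32851 promoters. On the opposite strand (GGAAAG) it was present in 1 of 72 (1.39%), against 2.25% of all promoters. A match is a description of these letters and not of a factor. CTTTCC is 1 fixed string of pyrimidines, so a promoter without it can still hold another pyrimidine run. The match, in capitals, starts within 4 bases of the RefSeq start in each of these 7 windows, which are shown for that reason.
Rpl18 (chr7:45718062-45718091, plus strand): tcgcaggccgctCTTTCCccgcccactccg
Rpl28 (chr7:4792955-4792984, plus strand): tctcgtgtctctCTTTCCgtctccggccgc
Rpl35a (chr16:33056472-33056501, plus strand): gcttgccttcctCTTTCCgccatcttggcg
Rpl38 (chr11:114668568-114668597, plus strand): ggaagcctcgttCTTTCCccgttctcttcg
Rpl15 (chr14:18270965-18270994, minus strand): aaagccttcttcCTTTCCtctggcggcagc
Rps10 (chr17:27635223-27635252, minus strand): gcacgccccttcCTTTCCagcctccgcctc
Rps27 (chr3:90213630-90213659, minus strand): ccgctttcgctcCTTTCCggcggtgacgac

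Wells with at least 2000 nuclear reads (reads outside spike-in and mitochondrial rows) and 500 genes were kept, 300 of 384 after DMSO and 290 of 384 after ISX-9. Kept wells held 2295 to 489134 nuclear reads after DMSO (median 26340) and 2007 to 326339 after ISX-9 (median 22510). Values are raw read counts and not molecules, so several reads can come from 1 molecule. The 95% intervals given below treat each read as independent, so they can be too narrow even for counting error. They do not cover differences between wells or plates. Both plates carry the same 384 well names, 225 of which were kept in both; across those, the ribosomal protein shares had a Spearman rho of 0.03. A read of the epithelial markers was present in 293 of 300 and 282 of 290 wells, and of Neurog3 in 147 and 211 wells. Immune markers were read in 1 well of each plate and mesenchymal markers in 2 and 7 wells. Other markers were read more often, the endothelial marker Pecam1 in 15 and 44 wells and the neural markers Elavl4 and Tubb3 in 48 and 102. Rn45s, a ribosomal RNA precursor, took 12.6% of the kept wells' nuclear reads after DMSO and 6.10% after ISX-9, and its part in the differences below was measured by leaving it out.

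Ribosomal protein genes took nearly the same part of all reads on both plates. They made up 7.92% of nuclear reads after DMSO (95% Clopper-Pearson interval 7.91 to 7.93%) and 7.88% after ISX-9 (7.86 to 7.89%). Single wells ran from 0.659 to 21.7% after DMSO and from 1.09 to 16.3% after ISX-9, so the spread between wells was far wider than the gap between plates. The median well held 6.99% (quartiles 3.71 and 10.04%) after DMSO and 7.15% (4.26 and 9.20%) after ISX-9. Without Rn45s the order of the medians turned, to 9.09% after DMSO and 8.02% after ISX-9, and the pooled shares were 9.06 and 8.39%. The small subunit gave 38.6% of ribosomal protein reads after DMSO and 38.9% after ISX-9. The median well held a read of 68 of the 80 genes on each plate.

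**Figure D1:**
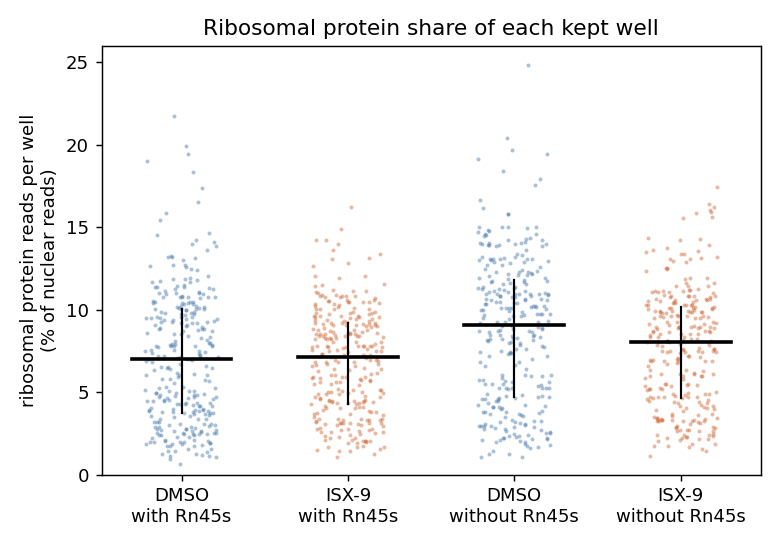
Ribosomal protein reads as a percent of nuclear reads in each kept well (points), for the DMSO and ISX-9 plates, with and without Rn45s in the total; horizontal bars are medians and vertical lines the quartiles. With Rn45s the medians are 6.99 and 7.15%, and without it 9.09 and 8.02%, inside a spread that covers most of each plate's range.

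Gene by gene, no ribosomal protein gene differed 2-fold between the plates. Of the 80 genes, 70 had a mean of at least 10 CPM (read counts scaled to a common total of nuclear reads). Because both plates entered this mean, the 10 others are described apart. Expressed as the log2 of (CPM + 5) after ISX-9 over that after DMSO, the 70 ratios ran from -0.31 to 0.31 with a median of 0.01. None was 2-fold higher or lower, where 4.51% of the 9106 genes measured were 2-fold higher and 1.19% lower. A ratio above 0 was found for 39 of 70, against 67.4% of all genes, and below 0 for 31 of 70, against 32.6%. The median of all genes was 0.15. That split depends on the scaling: 7 of 70 were above 0 after median-of-ratios scaling, which moved the median of all genes to 0.00, and 2 of 70 after scaling by spike-in reads, Rps19 and Rps28. Without Rn45s, 16 of 71 were above 0. Small-subunit genes (17 of 29 above 0, median 0.01) and large-subunit genes (22 of 41, median 0.02) had like values.

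Among the genes with the highest ratios were 4 of the small subunit and 1 of the large subunit. Rps19, whose human counterpart is mutated in Diamond-Blackfan anaemia, had 521 CPM after DMSO and 645 CPM after ISX-9, a log2 ratio of 0.31 (counting interval 0.26 to 0.35). Rps28 followed with 698 and 846 CPM (0.28, interval 0.24 to 0.32) and Rps21 with 296 and 351 CPM (0.25). Rps27l, a paralog of Rps27 known as a p53 target, had 161 and 190 CPM (0.23). Rpl39, a small protein of the exit tunnel, had 1173 and 1361 CPM (0.21). These 5 were above 0 without Rn45s, with wells weighted equally and after median-of-ratios scaling. After spike-in scaling Rps21, Rps27l and Rpl39 lay between -0.04 and -0.01.

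At the low end, Rpl29 had 204 CPM after DMSO and 164 CPM after ISX-9, a log2 ratio of -0.31 (interval -0.39 to -0.23). Rps24, another gene of Diamond-Blackfan anaemia, had 616 and 501 CPM (-0.29, interval -0.34 to -0.25). Rpl13 had 1344 and 1121 CPM (-0.26) and Rpl17 had 1546 and 1361 CPM (-0.18). These 4 were below 0 under the 4 other scalings and weightings run for them (without Rn45s, equal weight of wells, median of ratios and spike-ins). Most ribosomal protein genes were below 0 there too, so this is not particular to these 4. Above 0 were 16 of 71 without Rn45s, 28 of 70 with equal weight of wells, 7 after median of ratios and 2 after spike-ins.

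**Figure D2:**
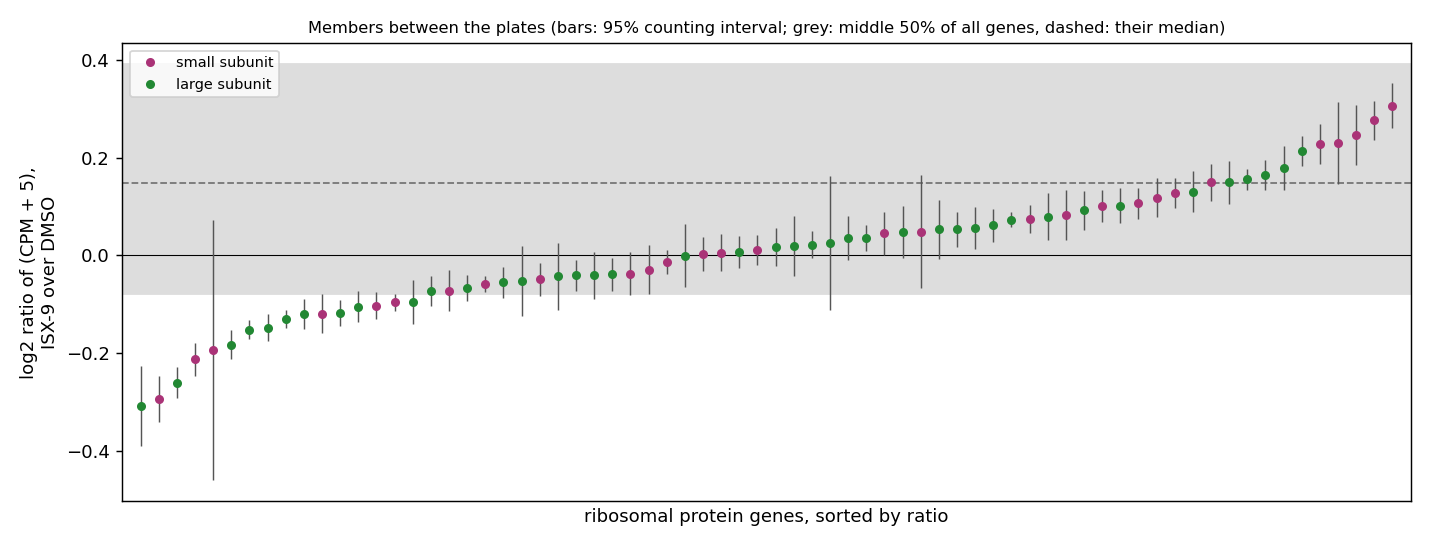
Log2 of (CPM + 5) after ISX-9 over that after DMSO for the 70 ribosomal protein genes at 10 CPM or more, sorted from the lowest to the highest ratio (x), by subunit; vertical lines are 95% counting intervals, the grey band holds the middle 50% of all 9106 genes and the dashed line is their median of 0.15. All 70 lie between -0.31 and 0.31, and 0 reach a 2-fold difference.

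Genes with known roles of their own differed little between plates. The stalk, which recruits translation GTPases, is built on Rplp0, which had 1613 CPM after DMSO and 1455 CPM after ISX-9 (log2 ratio -0.15). Its partner Rplp1 had 1361 and 1293 CPM (-0.07). Rpl5, which binds Mdm2 together with Rpl11 when ribosome assembly fails, had 3711 and 3392 CPM (-0.13), and Rpl11 had 828 and 837 CPM (0.02). Rps6, the substrate of S6 kinase, had 4459 and 4282 CPM (-0.06). Rpsa, also known as the laminin receptor, had 3879 and 3628 CPM (-0.10). Rps27a, made as a fusion with ubiquitin, had 998 and 1000 CPM (0.00).

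Of the 80 genes, 10 had almost no reads, and several of them encode core proteins that every ribosome carries. Rplp2, the third stalk protein, had 8 reads after DMSO and 16 after ISX-9. Rps27 had 7 and 19 reads, Rpl26 had 4 and 7, Rpl30 had 28 and 29, Rpl34 had 16 and 10, and Rpl37 had 20 and 15. Rps15a had 118 and 122 reads, or 8.00 and 10.3 CPM. The other three are paralogs known from testis or muscle: Rpl10l with 1 and 3 reads, Rpl39l with 0 and 1, and Rpl3l with 1 and 0. Their parents stood far above them: Rpl10 had 1777 and 1637 CPM, and Rpl3 had 1177 and 1144 CPM. Rps27l is the exception, since it had 2377 and 2239 reads where its parent Rps27 had 7 and 19. Rps4x had 1041 and 1117 CPM, whereas Rps4y2, an older symbol of Rps4l that falls outside the symbol rule, had 0 reads after DMSO and 9 after ISX-9, all in 1 well.

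Many of these genes have near-identical copies in the genome, and no source used here gives the rule for reads that fit several copies. Its part in the low counts was not tested. As a description, the last 400 bases of each gene's GENCODE M21 transcript were cut into windows of 60 bases and looked up in the transcripts of all other genes. Of the 10 low genes, 5 shared over 50% of windows with another gene (median 44.6%), and of the 70 others 37 did (median 53.8%). Without the 3 paralogs Rpl10l, Rpl39l and Rpl3l, none of which shared a window, 5 of the 7 remaining low genes did (median 67.2%), a split made after the values were seen. Rps27 shared 98.6% of its windows, Rps15a 68.3% and Rplp2 31.1%, whereas Rpl37 shared none. Among the measured genes 4 shared all of theirs (Rpl9, Rpl10, Rpl12 and Rpl36a), so their values are uncertain between copies. The same limit holds in part for others that share windows, such as Rps27a (90.3%), Rpl13 and Rps6 (87.7% each) and Rps24 (71.3%).

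The ribosomal protein share differed with the level of Tph1. Wells with 500 CPM or more of Tph1 held a smaller median share than wells with less or none, on both plates. After DMSO the median share was 7.85% in 168 wells with no Tph1 read, 8.01% in 60 wells under 500 CPM, 3.83% in 51 wells at 500 to under 5000 CPM and 2.79% in 21 wells at 5000 CPM or more. After ISX-9 it was 8.36% in 155 wells with no read, 7.93% in 54 wells under 500 CPM and 4.17% in 74 wells at 500 to under 5000 CPM. The 7 ISX-9 wells at 5000 CPM or more lay between 1.66 and 6.60%. In the same order of levels, the median depth was 24443, 60001, 13065 and 26991 reads after DMSO. After ISX-9 it was 19766, 34557, 22136.5 and 6365 reads. Wells under 500 CPM were not set against the others at like depth. Taking all wells at 500 CPM or more, the quartiles were 2.12 and 5.76% after DMSO (72 wells, median 3.18%), against 4.68 and 10.8% in wells with no read. After ISX-9 they were 2.75 and 6.40% (81 wells, median 4.08%), against 5.62 and 9.79%. The ranges between quartiles overlapped on both plates, and 1 Tph1 well after DMSO reached 19.4%.

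**Figure D3:**
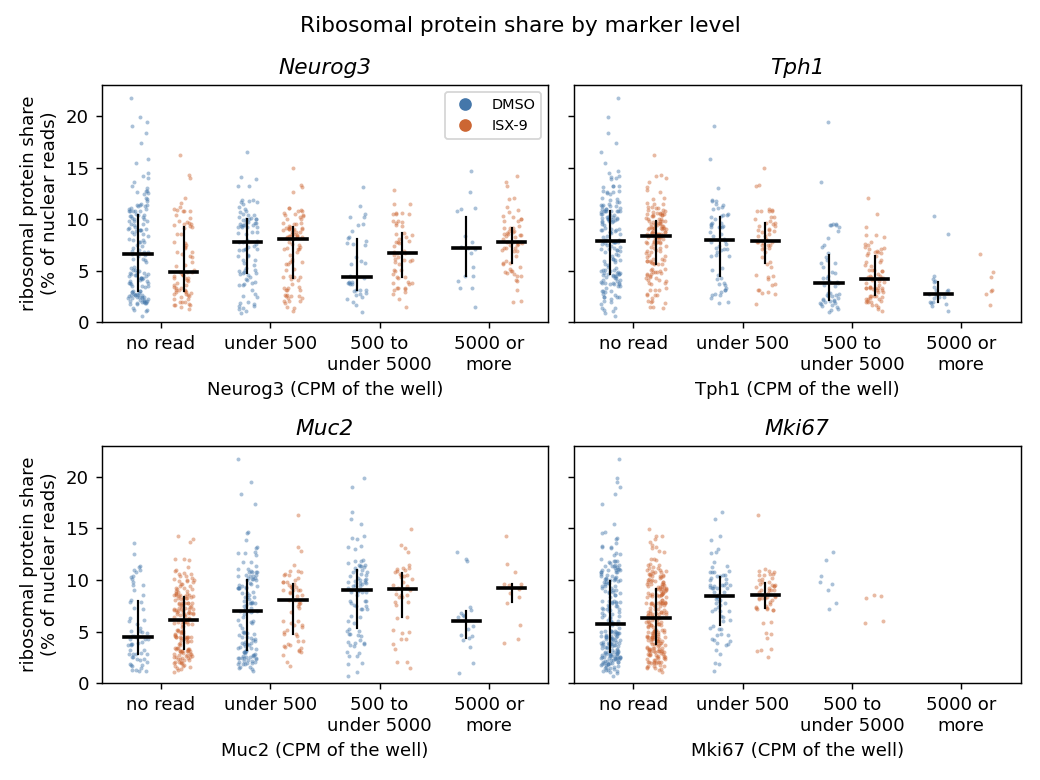
Ribosomal protein share of each well by its level of Neurog3, Tph1, Muc2 or Mki67 in CPM, for the DMSO (blue) and ISX-9 (orange) plates; horizontal bars are medians and vertical lines quartiles, drawn for bins of at least 10 wells. The Tph1 medians drop from 7.85 and 8.36% with no read to 3.83 and 4.17% at 500 to under 5000 CPM, and the Muc2 medians are lowest with no read.

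Depth moved with the share too, so the Tph1 wells were set against wells of like depth. From the shallowest to the deepest of 4 equal classes of wells the median share went from 4.54 to 8.86% after DMSO and from 4.49 to 8.51% after ISX-9. Under 10000 reads the medians after DMSO were 3.19% at 500 CPM or more of Tph1 and 5.10% with no read. From 10000 to under 30000 reads they were 2.69 and 7.99%, and at 30000 reads or more 4.76 and 9.78%. After ISX-9 the same pairs were 3.36 and 5.84%, 3.29 and 8.67%, and 5.03 and 9.13%. The Tph1 wells were lower in all 3 depth classes of both plates.

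**Figure D4:**
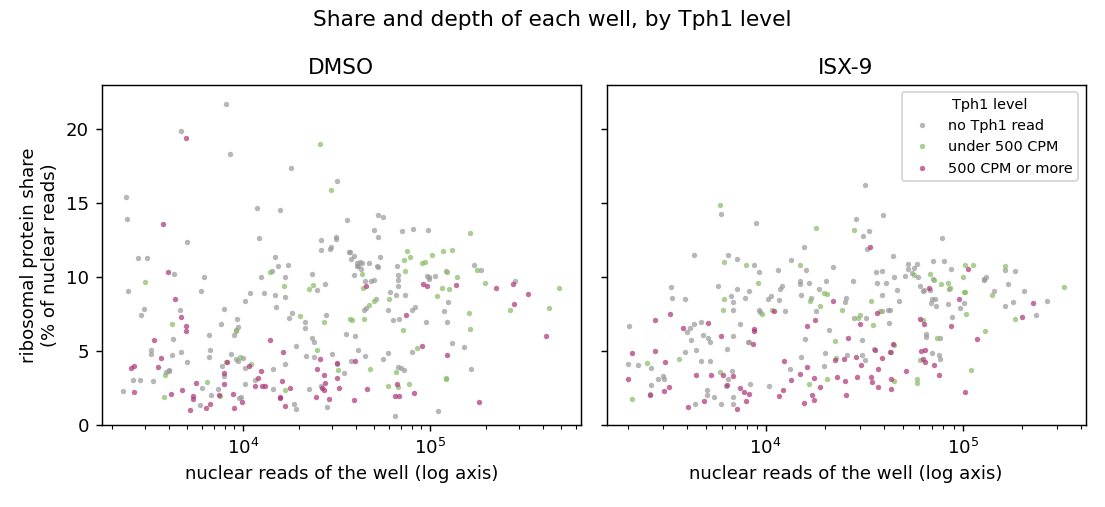
Ribosomal protein share (percent of nuclear reads) against nuclear reads per well on a log axis, for each plate, with wells coloured by Tph1 level. At 30000 reads or more, the median is 4.76% at 500 CPM or more of Tph1 against 9.78% with no read after DMSO, and 5.03 against 9.13% after ISX-9.

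A few abundant genes of these cells take many reads, and the share was also computed outside them. Without the 50 other genes with the most reads in Tph1 wells of a plate (led by Chgb, Malat1 and Chga after DMSO and by Chgb, Tac1 and Malat1 after ISX-9), the medians were 3.98% at 500 CPM or more and 8.70% with no read after DMSO. After ISX-9 they were 5.03 and 9.10%. Without Rn45s they were 3.39 and 10.5% after DMSO and 4.35 and 9.27% after ISX-9. Per spike-in read, the median Tph1 well had 0.217 ribosomal protein reads after DMSO, against 0.881 in wells with no Tph1 read. Other nuclear reads per spike-in read, counted here and in the rest of this paragraph without Rn45s, were 5.66 and 7.32. After ISX-9 the ribosomal protein ratios were 0.313 and 0.641 and the others 7.30 and 7.48. With reads pooled over wells the DMSO picture differed: ribosomal protein reads per spike-in read were 1.205 in Tph1 wells and 1.263 in wells with no read, and other reads 16.7 and 11.4. After ISX-9 the pooled ratios were 0.728 and 1.35 for ribosomal protein reads and 11.7 and 13.04 for other reads. The pooled shares were 6.13 and 8.41% after DMSO and 5.59 and 8.73% after ISX-9. A smaller share of ribosomal protein mRNA and more mRNA of other genes cannot be told apart from shares alone.

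Marker lists of the cell types moved with this split. The 4 enterochromaffin markers summed to 1217 to 58530 CPM in Tph1 wells after DMSO (median 18338) and to 0 to 34359 CPM in wells with no read (median 138). After ISX-9 the medians were 12726 and 359 CPM. Tph1 is 1 of these 4 markers and sets the split, so part of this contrast was fixed in advance. The others, Chga, Tac1 and Slc18a1, had means of 7705, 6150 and 1179 CPM in Tph1 wells after DMSO. In wells with no read they had 395, 328 and 247 CPM. After ISX-9 the means were 4470, 6412 and 1170 CPM, and 191, 776 and 425 CPM with no read. The 5 goblet markers had medians of 430 CPM in Tph1 wells (58.1 to 4779) and 6533 CPM in wells with no read (0 to 113110) after DMSO, and 572 (0 to 11620) and 2851 CPM (0 to 50539) after ISX-9. The 4 Paneth markers had medians of 339 (0 to 5335) and 5459 CPM (0 to 156825) after DMSO, and 69.7 (0 to 7946) and 686 CPM (0 to 94685) after ISX-9. Goblet and Paneth markers were thus higher in wells with no Tph1 read, and their part in the ribosomal protein difference was not tested.

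The lower level in Tph1 wells was spread over almost all ribosomal protein genes. With the mean CPM per well, 69 of 70 genes were lower at 500 CPM or more of Tph1 than in wells with no read after DMSO and 70 of 70 after ISX-9, where 44.3 and 48.5% of all genes were lower. The median log2 ratio was -0.82 and -0.78, against 0.12 and 0.02 for all genes. After DMSO 18 of 70 were 2-fold lower (9.98% of all genes), and after ISX-9 5 of 70 (7.48% of all genes), a share near the background. None was 2-fold higher, where 17.3 and 11.3% of all genes were. When reads were pooled, so that deep wells weigh more, all 70 were lower on both plates, with medians of -0.44 and -0.62, and none was 2-fold lower.

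Both subunits took part, with medians of -0.81 and -0.79 for small-subunit genes and -0.83 and -0.74 for large-subunit genes (DMSO and ISX-9). The lowest was Rpl36a, a large-subunit gene on X, at 117 CPM in Tph1 wells and 316 CPM in wells with no read after DMSO (log2 ratio -1.40) and at 151 and 325 CPM after ISX-9 (-1.09). Rps19 was at 208 and 527 CPM after DMSO (-1.32) and at 306 and 603 CPM after ISX-9 (-0.97). The stalk base Rplp0 was at 602 and 1425 CPM (-1.24) and at 627 and 1221 CPM (-0.96). Rpsa, with 1944 and 4358 CPM (-1.16) and 2017 and 4248 CPM (-1.07), was lower by a like amount. Among the smallest differences was that of Rps28, at 495 and 729 CPM (-0.55) and at 663 and 758 CPM (-0.19).

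Genes that hold CTTTCC at their start did not stand out in this contrast. Genes without these letters can hold another pyrimidine run, so the split does not compare genes with and without a TOP motif. The 9 measured genes with it had median log2 ratios of -0.76 and -0.69, and the 42 measured genes with a matched promoter and no such match had -0.85 and -0.80. The ranges of both sets overlapped on both plates (-1.01 to -0.49 within -1.40 to -0.37 after DMSO).

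Muc2 showed the opposite order. The median share was 4.48% in 63 DMSO wells with no Muc2 read and 8.66% in 104 wells at 500 CPM or more. After ISX-9 it was 6.15% in 172 wells and 9.13% in 57 wells. The DMSO wells with the most Muc2 broke the order, since 18 wells at 5000 CPM or more had a median of 6.002%, against 9.03% in 86 wells at 500 to under 5000 CPM. The 14 such ISX-9 wells had 9.23%. Under 10000 reads the DMSO medians were close, at 4.76 and 4.54%, and without Rn45s they were 8.58 and 5.26%. Of the wells with no Muc2 read, many carry Tph1: their enterochromaffin markers had medians of 2739 and 2894 CPM, against 120 and 366 CPM in Muc2 wells. Goblet markers had medians of 14979 and 16300 CPM in Muc2 wells and 599 and 830 CPM in wells with no read. Muc2 is 1 of these 5 markers and sets the split, so part of this contrast was fixed in advance. Each of the 5 was 2-fold higher in Muc2 wells on both plates (12.8 and 8.07% of all genes). Wells with 500 CPM or more of Muc2, and less of Neurog3, Tph1 and Mki67, had medians of 8.81% (96 wells) after DMSO and 9.31% (42 wells) after ISX-9. Wells with none of these 4 genes at 500 CPM, some of them with a little Muc2, had 7.27% (91 wells) and 7.25% (72 wells). Apart from this, the part of the mixture was not tested.

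By gene, 69 of 70 ribosomal protein genes were higher in Muc2 wells after DMSO and 70 of 70 after ISX-9, where 44.3 and 38.7% of all genes were higher. Their median log2 ratios were 0.60 and 0.48, against -0.15 and -0.26 for all genes. The 2-fold mark was reached by 2 genes after DMSO (12.8% of all genes) and 1 after ISX-9 (8.07%), and none was 2-fold lower (20.9 and 20.4% of all genes). Rpl39 was at 1130 CPM in Muc2 wells and 546 CPM in wells with no read after DMSO (1.04) and at 1705 and 950 CPM after ISX-9 (0.84). Rpl36a was at 364 and 170 CPM (1.07) and at 409 and 232 CPM (0.81). The smallest differences by the mean of both plates were those of Rpl27 (0.22 and 0.15) and Rpl11 (0.19 and 0.24).

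**Figure D5:**
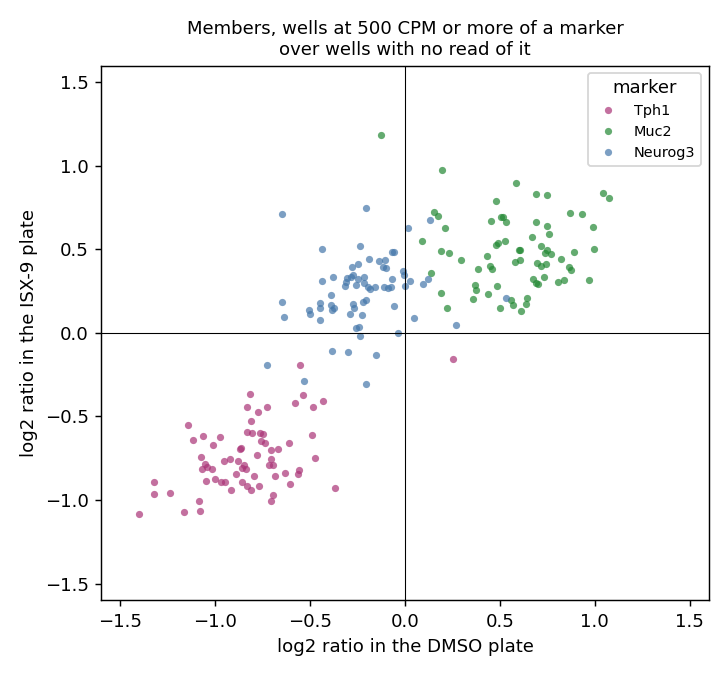
Each point is 1 of the 70 ribosomal protein genes: log2 ratio of (mean CPM + 5) in wells at 500 CPM or more of a marker over wells with no read of it, in the DMSO plate (x) and the ISX-9 plate (y), for Tph1, Muc2 and Neurog3. Tph1 points lie low on both axes (medians -0.82 and -0.78), Muc2 points high (0.60 and 0.48), and Neurog3 points are mostly below 0 on x and above 0 on y (-0.23 and 0.28). For Neurog3, Tph1 wells and Rn45s were not left out.

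Along Neurog3 the plates went different ways when all wells and all nuclear reads were used. After DMSO the median share was 5.72% in 56 wells at 500 CPM or more and 6.62% in 153 wells with no read. After ISX-9 it was 7.49% in 120 wells and 4.90% in 79 wells. The mixture with Tph1 also differed: 41.1% of the DMSO wells at 500 CPM or more of Neurog3 had 500 CPM or more of Tph1, against 20.3% of those with no read, and after ISX-9 these were 24.2 and 32.9%. Leaving out every well at 500 CPM or more of Tph1, the medians were 7.17 and 7.88% after DMSO and 8.06 and 7.20% after ISX-9. Without these wells and without Rn45s the order after ISX-9 turned, to 8.54% at 500 CPM or more of Neurog3 against 8.86% with no read, and both plates then ran the same way (8.70 and 10.5% after DMSO). The wells were also split by depth. Under 10000 reads the DMSO medians were 3.81 and 4.62%, from 10000 to under 30000 reads the order turned, to 5.49 and 4.66%, and at 30000 reads or more they were 7.51 and 9.10%. After ISX-9 the same pairs were 6.40 and 4.26%, 7.77 and 4.66%, and 7.57 and 7.001%. Without Rn45s the DMSO order did not turn, with pairs of 4.33 and 7.47%, 6.52 and 10.1%, and 8.56 and 10.4%. The ISX-9 pairs were then 7.31 and 5.36%, 8.25 and 5.14%, and 8.09 and 7.21%. The direction along Neurog3 thus depended on depth together with Rn45s after DMSO, and on Rn45s and Tph1 wells after ISX-9.

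Wells were also sorted by both genes. With 500 CPM or more of Neurog3 alone, the median share was 7.56% (31 wells) after DMSO and 7.82% (79 wells) after ISX-9. With both Neurog3 and Tph1 it was 4.33% (21 wells) and 4.99% (28 wells), and with Tph1 alone 2.83% (48 wells) and 3.38% (50 wells). Wells with none of the 4 genes at 500 CPM had 7.27% (91 wells) and 7.25% (72 wells). The wells with both genes lay between the other 2 kinds on both plates.

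By gene, 61 of 70 ribosomal protein genes were lower in Neurog3 wells after DMSO (43.6% of all genes) and 63 of 70 were higher after ISX-9 (56% of all genes), with medians of -0.23 and 0.28. Tph1 wells and Rn45s were not left out of these counts, the setting in which the shares went different ways. None was 2-fold higher (14.2 and 12.9% of all genes) or lower (8.62 and 10.8%) on either plate. Rpl31, among the highest by the mean of both plates, was at 73.2 CPM in Neurog3 wells and 49.1 CPM in wells with no read after DMSO (0.53) and at 49.6 and 42.3 CPM after ISX-9 (0.21). Rpl36a was lower on both plates (-0.73 and -0.19), as was Rpl41, the shortest ribosomal protein (-0.53 and -0.29).

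Few wells had much Mki67. At 500 CPM or more there were 8 DMSO wells, with shares of 7.19 to 12.7%, and 5 ISX-9 wells, with 5.81 to 8.59%. Wells with any Mki67 read had a median of 8.82% (78 wells) after DMSO and 8.49% (61 wells) after ISX-9, against 5.70% (222 wells) and 6.34% (229 wells) with no read. Depth differed greatly between these wells, with medians of 68132 and 76722 reads where Mki67 was read and 16645 and 16309 where it was not. Among wells with at least 10000 reads the differences of the medians were 1.77 and 1.01 percentage points. By gene, in the 8 DMSO wells at 500 CPM or more, 68 of 70 ribosomal protein genes were higher than in wells with no read (51.4% of all genes, median 0.50). In the 5 ISX-9 wells 44 of 70 were higher (40.3% of all genes, median 0.22). Rpl31 (0.95 and 1.69) and Rpl22 (1.08 and 1.05) were highest by the mean of both plates, and Rpl39 (0.81 and -1.05) was among the lowest. The 5 ISX-9 wells had a median of 16888 reads and Rpl31 a mean of 64.5 CPM over both plates, so its ISX-9 ratio rests on few reads.

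Ribosomal protein genes varied together from well to well. The Spearman rho of a gene's CPM with the sum of the other ribosomal protein genes had a median of 0.72 after DMSO (300 wells) and 0.67 after ISX-9 (290 wells). It was highest for Rpl13 (0.83) after DMSO and Rplp1 (0.85) after ISX-9. All wells of a plate share a library, and a well's depth enters each of its values.

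The genes outside the set that followed the ribosomal protein share most closely also serve translation. Among 96 other genes detected in at least 80% of each plate's wells, the median rho with the share was 0.19 and 0.21. The highest were Eef1a1, the elongation factor that brings tRNA (0.78 and 0.76), Gnb2l1, the older symbol of the ribosome scaffold Rack1 (0.75 and 0.69), and the elongation factor subunit Eef1b2 (0.70 and 0.67). Also among the highest were Rps3a1 (0.75 and 0.66), a ribosomal protein gene that the symbol rule missed, Tpt1 (0.73 and 0.66), Eef1g (0.68 and 0.62) and the poly(A)-binding protein gene Pabpc1 (0.66 and 0.59). At the other end, Chgb, which encodes a granin of endocrine secretory granules, had -0.50 and -0.68. Next came the nuclear noncoding RNAs Malat1 (-0.39 and -0.47) and Kcnq1ot1 (-0.29 and -0.31), then Gm17821 (-0.30 and -0.29), A630089N07Rik (-0.22 and -0.25), Vmn2r55 (-0.21 and -0.25), Grk4 (-0.20 and -0.18) and Gm10845 (-0.16 and -0.22).

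Other lists of the protein synthesis pathway were described in the same way. A summed list of translation factors and translation-linked genes, such as Tpt1 and Npm1, had a rho of 0.88 and 0.86 with the share. Ribosome biogenesis genes had 0.52 and 0.42, and mitochondrial ribosome genes 0.56 and 0.42. In Tph1 wells, 15 of 18 measured genes of the translation list were lower after DMSO and 18 of 18 after ISX-9. Their medians were -0.71 and -0.61, and 44.3 and 48.5% of all genes were lower. Of ribosome biogenesis genes 25 of 36 and 26 of 37 were lower (medians -0.33 and -0.45), and of mitochondrial ribosome genes 48 of 71 and 45 of 71 (medians -0.27 and -0.16). Of the regulators, 4 of 11 and 6 of 11 were lower. Between plates, Myc, which drives ribosome biogenesis, was at 120 CPM after DMSO and 218 CPM after ISX-9 (0.84). Eif4ebp1, the translation repressor under mTOR, was at 187 and 117 CPM (-0.65).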

How the data were processed

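The authors deposited 1 table of raw read counts per plate, a row for each gene and a column for each of 384 wells. Per the labels, cells were processed by SORT-seq with CEL-Seq2 primers, which carry a molecular barcode of 4 bases. The submitters' processing notes name BWA and hg19, although rows carry mouse symbols, so chromosomes are given without gene coordinates from the tables. A gene absent from 1 table was set to 0 there. Shares, CPM and log2 ratios of (CPM + 5) were computed with Python 3.11.15, numpy 2.4.6, pandas 2.3.3 and scipy 1.17.1 and tested on simulated data. Plates were compared from reads summed over wells. Wells along a marker were compared by the mean CPM per well, a weighting chosen after its values were seen. Doublets were not called.

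The members, lists and rules were chosen with earlier results of these data known. Named genes are the 6 highest and 6 lowest between plates, the 2 highest and 2 lowest per marker by the mean of both plates, fixed members with special roles, every member below 10 CPM, and 8 genes at each end of the correlation with the share. A few genes that these rules pick are not reported here. Alternatives were scaling, pseudocount, filters, thinning to 2000 reads and well depth.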

Additional observations from a re-analysis of the deposited data

Results flagged for a closer look

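The median ribosomal protein share of wells at 500 CPM or more of Neurog3 minus wells with no read was -0.894 percentage points after DMSO and 2.59 after ISX-9. The signs are opposite, and the difference between the plates was not tested. Without wells at 500 CPM or more of Tph1 and without Rn45s the values were -1.82 and -0.321, and the signs no longer differed.

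Wells below the minimum of 2000 reads or 500 genes also held ribosomal protein reads, with a share of 3.76% over 84 DMSO wells (interval 3.67 to 3.85%) and 5.38% over 94 ISX-9 wells (5.25 to 5.51%). Both lie under the pooled shares of the kept wells.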

How the results depend on the processing

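No paired analysis was possible because each treatment has 1 plate. The planned difference at 500 CPM or more of Mki67 has no value, since fewer than 10 wells reached it; wells with any read were used after seeing the data. The cause of the moves below was not tested.

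The log2 ratio of the pooled share was -0.01, and -0.11 without Rn45s, -0.0417 as a mean over wells, -0.0409 without the top 5% of wells and -0.26 per spike-in read. The 39 genes above 0 became 16 without Rn45s, 7 after median-of-ratios and 2 after spike-in scaling. Of the differences of median shares (percentage points), those without Rn45s were -2.60 and 1.95 for Neurog3 (DMSO and ISX-9), -7.13 and -4.92 for Tph1, 5.49 for Muc2 in DMSO and 1.68 for Mki67 in DMSO. With a read or none in wells thinned to 2000 reads they were -1.37 and 0.122 for Neurog3, 2.61 and 2.24 for Muc2, and 2.60 and 1.56 for Mki67. With at least 10000 reads they were -1.51 and 1.63 for Neurog3, -5.74 for Tph1 in DMSO, 5.33 for Muc2 in DMSO, and 1.77 and 1.01 for Mki67. At 1000 CPM or more of Tph1 the ISX-9 value was -4.98. These kept their sign. Of the alternatives added for Neurog3 after seeing the data, leaving out Tph1 wells gave 0.860 for ISX-9, and leaving out Tph1 wells and Rn45s gave -1.82 for DMSO and turned ISX-9 to -0.321. By depth, with Rn45s in the total, DMSO turned to 0.829 at 10000 to under 30000 reads and was -1.58 at 30000 or more. ISX-9 had 3.12 and 0.567 in these classes. Without Rn45s DMSO did not turn at 10000 to under 30000 reads (medians 6.52 and 10.1%). Of 24 named genes, 5 changed sign without Rn45s, 3 in thinned wells and 5 with wells weighted equally. Of these, Rps4x (-0.00261 without Rn45s) is the one whose counting interval excludes 0, an interval that treats reads as independent.

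Depth limits the low genes: a count of 0 allows up to 0.203 CPM after DMSO and 0.254 CPM after ISX-9 by a floor of 3 counts. The 2-sided 95% interval used for CPM values, as for Alpi and Olfm4, reaches 0.250 and 0.313 CPM.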
